A study of Mus musculus with 9 samples.

Results

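The genes described here write or erase methyl groups on histones. They were taken by symbol from the array's annotation, as every gene with a Kdm, Kmt, Setd or numbered Prmt name, together with Ezh1, Ezh2, Suv39h2, Ehmt1, Ehmt2, Nsd1 and Dot1l. The rule gave 51 genes of the 18193 with a single-symbol probe set, each represented by its brightest probe set on average over all arrays. The set holds 21 lysine methyltransferase genes, 18 lysine demethylase genes, 8 protein arginine methyltransferase genes and 4 further SET-domain genes (Setd3, Setd4, Setd5 and Setd6) that were not assigned to a histone lysine here. Suv39h1, which the rule also names, was not analysed here because no probe set carried it as its only symbol in the annotation used.

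RNA was measured in pre-B cells of the mouse, a precursor stage at which immunoglobulin light-chain genes are assembled, on 9 Affymetrix arrays. All cells, controls included, were null (-/-) for IRF4 and IRF8, interferon regulatory transcription factors, and grew in OptiMEM with fetal calf serum and the B cell growth factor IL-7. The groups of 3 arrays each were low IL-7, high IL-7 with IRF4 reintroduced, and high IL-7. The labels give 0.25 ng of IL-7 per volume for low and 5 ng for high but disagree on the volume, and they give no time, no mouse age and no vector control for the reintroduced IRF4. The steps used to put IRF4 back therefore cannot be told apart from IRF4 itself. The labels do not say whether replicates came from separate cultures, so every p-value measures the spread between arrays, which may be technical.

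As background, SET-domain methyltransferases and Dot1l place methyl groups on lysines of histone tails and of the histone core, and the Kdm enzymes take them off. Methylation of H3K4 marks promoters and enhancers, H3K36 and H3K79 methylation follow transcription, and methylation of H3K9, H3K27 and H4K20 is tied to silent or compacted chromatin. Arginine methyltransferases use the same methyl donor, S-adenosylmethionine, and modify histones as well as splicing and ribosomal proteins. In B cell precursors, Ezh2 is known to be needed for normal heavy-chain gene rearrangement, and the recombinase subunit RAG2 reads trimethylated H3K4.

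Values are linear intensities in the authors' units, with array medians from 139.7 to 151.3. Changes are differences of group means on the scale log2(intensity + 16), with the standard error (SE) from limma, and a call needed an adjusted p (Benjamini-Hochberg, over the 12828 genes tested) under 0.05. Of the 51 genes, 48 passed the filter on low values, which was a mean intensity of about 106.5 or more over all arrays. Kdm4d lay between 43.5 and 53.7 and Prmt8 between 40.9 and 59 on all arrays, and Kdm5d lay between 86.8 and 118. These 3 were not tested. With 3 arrays a group, the number of arrays limits the precision.

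All 9 pre-B markers on the array lay above the filter, and none of the marker genes of any list was at 0 on an array. The summed intensity of the pre-B markers was 83478 to 86191 in low IL-7, 58791 to 62704 on arrays with IRF4 and 56926 to 64577 on high IL-7 arrays, and 6 of the 9 rose in low IL-7. Stromal markers summed to 16139 to 23377 in low IL-7, 16806 to 34002 on arrays with IRF4 and 17142 to 45745 on high IL-7 arrays, so these sums overlapped. Vim (6463 to 9871 over all arrays) and Acta2 (2691 to 4873) added to every stromal sum. Col1a2 (455 to 6277) and Cxcl12 (280 to 7051) varied far more between arrays. Against high IL-7, 1 of the 16 stromal markers above the filter rose in low IL-7 and 5 fell, with a median change of -1.33, where 17.8% of all genes rose and 19.5% fell, and with IRF4 none was called at an adjusted p under 0.05 and 1 at an unadjusted one, with a median of -0.77. The collagen gene Col3a1, one of the 5, read 61.5, 112 and 94.2 in low IL-7, 2106, 137 and 177 in cells given IRF4, and 310, 1622 and 598 in high IL-7, so it was high on IRF4 replicate 1 and on the high IL-7 arrays and below the filter intensity on most low IL-7 arrays. The T cell marker sums overlapped between the groups, and none of the 5 T cell markers above the filter was called. Myeloid markers summed to 3302 to 3372 in low IL-7, 3677 to 4196 on arrays with IRF4 and 2538 to 3010 on high IL-7 arrays, and erythroid markers to 17689 to 19067, 18339 to 19270 and 23331 to 24872 in the same order of groups. Over all arrays, Car2 (8274 to 14899) and Tfrc (8200 to 9280) made up most of the erythroid sum. Hba-a1, Klf1 and Gata1 read 66.2 to 89.2, 73.9 to 92.4 and 81.7 to 110. In the myeloid sum Ctss (559 to 2677) and Fcer1g (140 to 1431) reached the highest values, while Mpo and Elane stayed at 77.7 to 108 and 40 to 56.6. These sums therefore do not measure the number of such cells. Dendritic and natural killer markers summed to 1059 to 1189 in low IL-7, 1472 to 1942 on arrays with IRF4 and 1382 to 2087 on high IL-7 arrays. The part of these differences in the results below was not tested, and in bulk RNA fewer cells of a type cannot be told apart from less RNA per cell. One Irf4 probe set read 1088, 1379 and 2543 on the arrays with IRF4 put back, 257 to 316 on low IL-7 arrays and 202 to 381 on high IL-7 arrays. A brighter Irf4 probe set gave 3702 to 4256 with IRF4, 7161 to 7926 on low IL-7 arrays and 4719 to 5791 on high IL-7 arrays. The sources used here do not say where these probe sets lie relative to the null alleles, so neither checks the genotype.

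Relative to high IL-7, more lysine enzyme genes rose than fell in low IL-7, while the arginine methyltransferase genes that were called all fell. Of the 48 tested genes, 18 rose and 9 fell, which is 37.5% and 18.8%. Among all genes tested 17.8% rose and 19.5% fell, 37.3% in all. The median change was 0.15 for the 48 genes and 0.02 for all genes. Among lysine methyltransferases 9 of 21 rose and 2 fell (median 0.18), and among the 16 tested lysine demethylases 9 rose and 0 fell (median 0.29). Of the 7 tested arginine methyltransferases 5 fell and 0 rose (median -0.74), and 2 of the 4 further SET genes fell. With arrays weighted by their noise, 14 fell, and so did 32.3% of all genes. The heatmap by array and the plot of changes show all of them.

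**Figure D1:**
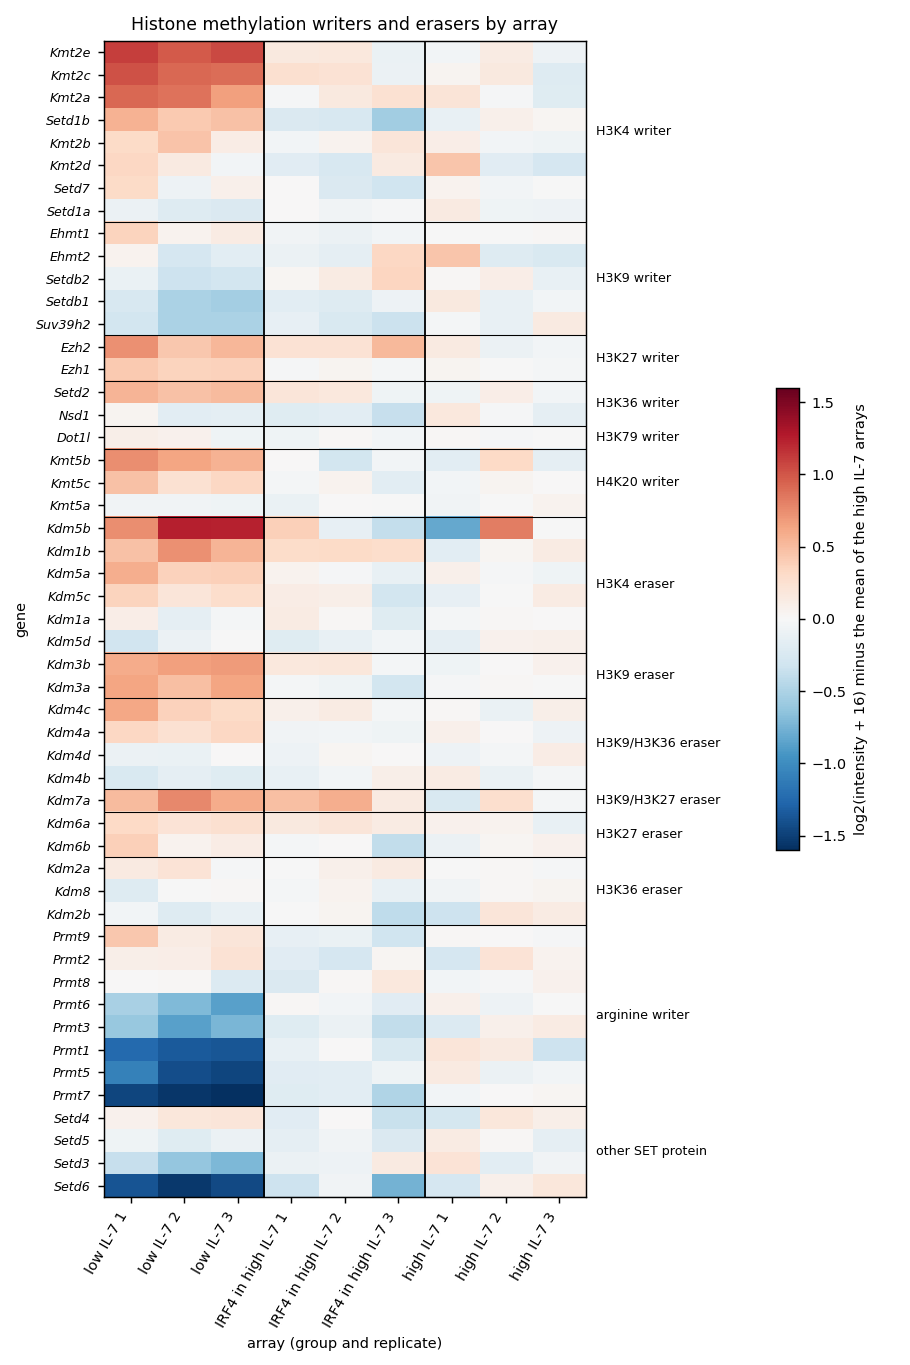
Heatmap of log2(intensity + 16) of each of the 51 genes (rows, grouped by the residue acted on) in each of the 9 arrays (columns), minus the gene's mean over the high IL-7 arrays. Low IL-7 columns are red for Kmt2e, Kmt2c and Kmt2a and blue for Prmt1, Prmt5, Prmt7 and Setd6, while the columns with IRF4 stay near the high IL-7 columns.

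Of all the rises, those of the MLL-family genes Kmt2e and Kmt2c had the smallest p. Kmt2e, an MLL-family protein that reads H3K4 methylation and has little or no methyltransferase activity of its own, read 3642, 3356 and 3517 in low IL-7, 1890, 1899 and 1575 in cells given IRF4, and 1642, 1846 and 1592 in high IL-7. Its low IL-7 arrays all lay far above the other 6, which overlapped each other. The means were 3505 ± 143 for low IL-7 and 1693 ± 135 for high IL-7 (SD, n = 3 each), a log2 change of 1.04 (SE 0.09, limma adjusted p = 1.02e-05). Kmt2c, which with Kmt2d places H3K4 monomethylation at enhancers, read 1740, 1621 and 1599 in low IL-7, 1022, 1008 and 796 in cells given IRF4, and 880, 956 and 736 in high IL-7. Again the low IL-7 arrays stood apart from both other groups, with a change of 0.94 against high IL-7 (SE 0.12, adjusted p = 0.000146). Kmt2a, or MLL1, needed for Hox gene expression in blood cells, read 1223, 1178 and 1011 in low IL-7, 627, 712 and 761 in cells given IRF4, and 739, 630 and 555 in high IL-7. It rose by 0.82 (SE 0.13, adjusted p = 0.000449), with its low IL-7 and high IL-7 arrays apart.

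Setd1b, a catalytic subunit of the SET1 complexes that place H3K4 trimethylation at promoters, had a different order of groups. It read 2770, 2530 and 2613 in low IL-7, 1600, 1573 and 1274 in cells given IRF4, and 1730, 1997 and 1926 in high IL-7. The low IL-7 arrays were highest and the arrays with IRF4 lowest, with no overlap between any of the groups. The change of low against high IL-7 was 0.48 (SE 0.10, adjusted p = 0.00324). The other 4 genes for H3K4 enzymes were not called: Kmt2b changed by 0.30 (adjusted p = 0.0528), Kmt2d by 0.14 (0.594), Setd7 by 0.10 and the second SET1 enzyme gene, Setd1a, by -0.18. Kmt2b was called in 9 of 24 settings, the main fit not among them. Among the 9 was a block, not planned at first, that paired the 6 low and high IL-7 arrays by replicate number (adjusted p = 0.0306).

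Both genes for the catalytic subunit of PRC2, the complex that methylates H3K27, rose in low IL-7. Ezh2, the main enzyme of dividing cells, read 6611, 5335 and 5733 in low IL-7, 4660, 4652 and 5690 in cells given IRF4, and 4385, 3706 and 3835 in high IL-7. All low IL-7 arrays and all arrays with IRF4 exceeded the highest high IL-7 array. The change of low against high IL-7 was 0.56 (SE 0.10, adjusted p = 0.00148). Ezh1, its paralog with weaker methyltransferase activity, read 459, 440 and 443 in low IL-7, 336, 350 and 332 in cells given IRF4, and 351, 338 and 332 in high IL-7. Only the low IL-7 arrays of Ezh1 stood apart, and the change was 0.38 (SE 0.08, adjusted p = 0.0026).

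The H3K9 methyltransferase genes did not rise. Suv39h2, which trimethylates H3K9 in pericentric heterochromatin, read 381, 328 and 327 in low IL-7, 430, 395 and 369 in cells given IRF4, and 462, 434 and 522 in high IL-7. It fell by 0.44 against high IL-7 (SE 0.10, adjusted p = 0.00711), with the arrays with IRF4 between the others and overlapping low IL-7 at their low end. Setdb1, which silences endogenous retroviruses with Trim28, fell by 0.44 as well (adjusted p = 0.00865). The H3K9 enzymes of euchromatin, which place mainly dimethylation, were not called. Ehmt1 read 3043, 2473 and 2586 in low IL-7, 2283, 2221 and 2302 in cells given IRF4, and 2351, 2351 and 2403 in high IL-7, a change of 0.18 (adjusted p = 0.11). Its partner Ehmt2, or G9a, read 1785, 1418 and 1529 in low IL-7, 1602, 1556 and 2155 in cells given IRF4, and 2351, 1488 and 1447 in high IL-7. For Ehmt2, 1 array of each of the last 2 groups lay far above its companions and all groups overlapped (change -0.13, adjusted p = 0.645).

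Among enzymes tied to transcribed gene bodies, Setd2 rose and the others did not pass the test. Setd2, the H3K36 trimethylating enzyme that travels with elongating RNA polymerase, read 1404, 1337 and 1366 in low IL-7, 1097, 1078 and 914 in cells given IRF4, and 916, 1036 and 932 in high IL-7. The low IL-7 arrays lay above all others, with a change of 0.51 against high IL-7 (SE 0.10, adjusted p = 0.0017). Nsd1, an H3K36 dimethylating enzyme, read 801, 686 and 695 in low IL-7, 673, 684 and 596 in cells given IRF4, and 872, 762 and 696 in high IL-7, and its low and high IL-7 arrays overlapped (change -0.09, adjusted p = 0.571). Dot1l, the H3K79 methyltransferase, read 1470, 1448 and 1307 in low IL-7, 1311, 1394 and 1330 in cells given IRF4, and 1390, 1363 and 1375 in high IL-7. Its change was 0.03 with a 95% interval of -0.14 to 0.20 (adjusted p = 0.794). Of the H4K20 enzymes, Kmt5b and Kmt5c, which add further methyl groups after Kmt5a, rose by 0.64 (adjusted p = 0.00411) and 0.35 (0.0135), and 2 of the 5 Kmt5b probe sets above the filter were called. The gene Kmt5a, which monomethylates H4K20, changed by -0.06 (0.496) on its brightest probe set.

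**Figure D2:**
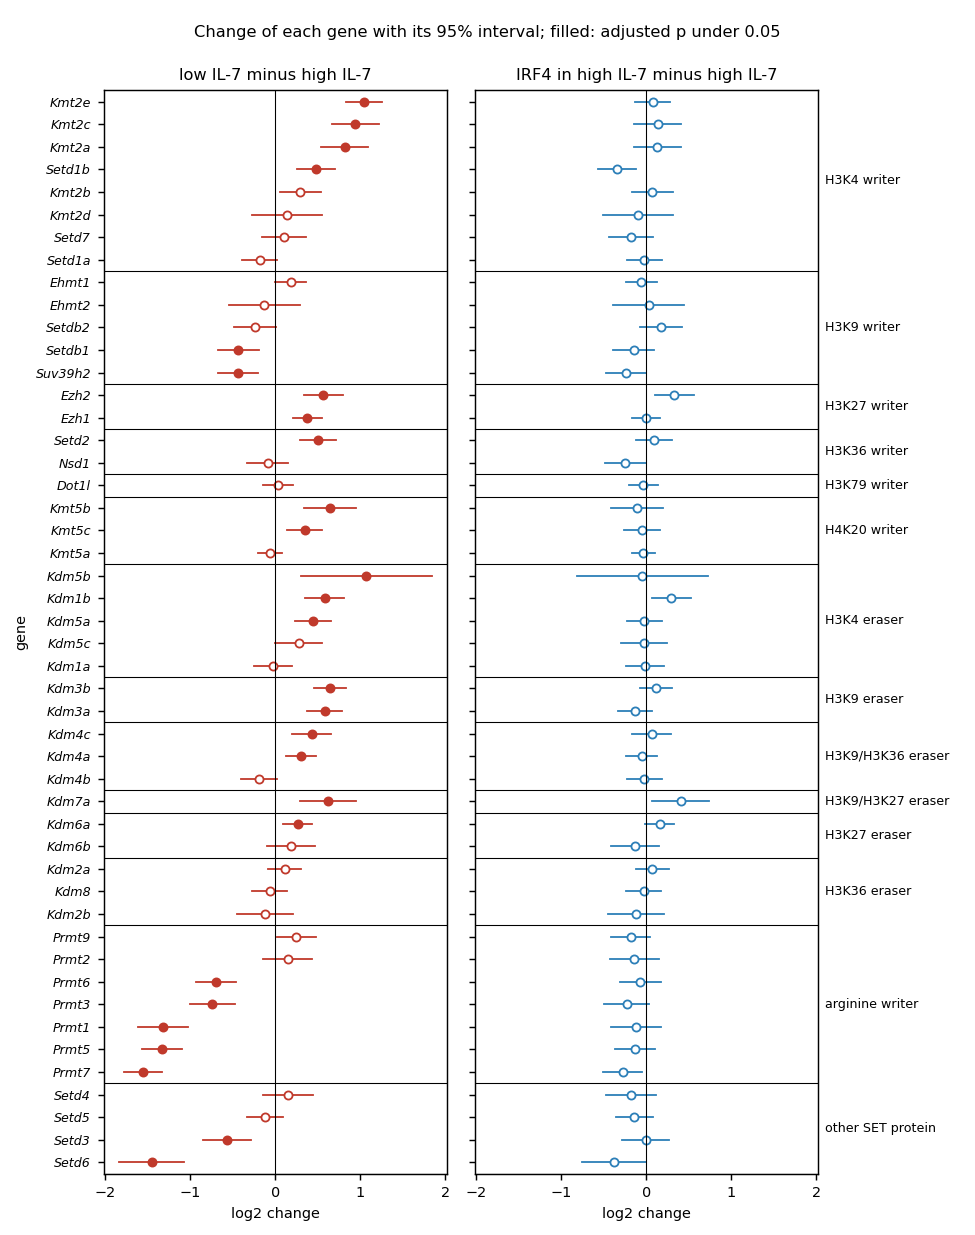
Log2 change of each of the 48 tested genes (rows, grouped by the residue acted on) with its 95% interval, for low IL-7 minus high IL-7 (left) and IRF4 in high IL-7 minus high IL-7 (right). Filled points passed an adjusted p under 0.05: 18 rose and 9 fell on the left, and none is filled on the right.

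The demethylases that rose act on several residues. Kdm3a and Kdm3b, the JmjC enzymes that remove H3K9 mono- and dimethylation, moved together. Kdm3b read 1913, 2005 and 2041 in low IL-7, 1425, 1435 and 1239 in cells given IRF4, and 1198, 1271 and 1322 in high IL-7, and rose by 0.65 (SE 0.09, adjusted p = 0.000154). Kdm3a read 1942, 1746 and 1933 in low IL-7, 1218, 1186 and 1010 in cells given IRF4, and 1233, 1262 and 1245 in high IL-7, and rose by 0.58 (SE 0.09, adjusted p = 0.000529). In both genes every low IL-7 array exceeded every other array, though the share of all genes separated in this way was not counted. Kdm4c and Kdm4a, which demethylate H3K9 and H3K36, rose by 0.43 (adjusted p = 0.00789) and 0.30 (0.013), and Kdm7a, which acts on H3K9 and H3K27, by 0.62 (0.00759). The Kdm4a call was lost when replicate 3 was left out of the low IL-7 arrays (0.0552) or of the high IL-7 arrays (0.0678). Kdm4b changed by -0.19 and was not called.

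The H3K4 demethylases were split. Kdm1b, a flavin-dependent enzyme like Kdm1a that removes H3K4 mono- and dimethylation, read 536, 644 and 567 in low IL-7, 471, 478 and 467 in cells given IRF4, and 340, 391 and 422 in high IL-7. The 3 groups did not overlap, and the change of low against high IL-7 was 0.58 (SE 0.10, adjusted p = 0.00117). Kdm1a, or LSD1, which works with CoREST and with Gfi1-type repressors, read 1897, 1593 and 1725 in low IL-7, 1941, 1791 and 1541 in cells given IRF4, and 1733, 1784 and 1780 in high IL-7. Its groups overlapped throughout (change -0.03, 95% interval -0.25 to 0.19, adjusted p = 0.867). Kdm5a rose by 0.44 (adjusted p = 0.00335), and its X-linked relative Kdm5c changed by 0.28 (0.108) on its brightest probe set. Of the 8 Kdm5c probe sets above the filter 3 were called up, and the 8 changes ran from -0.40 to 0.51. Kdm5c was called in 5 of 24 settings. Among these were the mean of its probe sets (0.23, adjusted p = 0.0303) and the replicate block within the 6 arrays (0.0424).

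Kdm5b, a JmjC H3K4 demethylase, had the largest change of the demethylases and also the widest spread. It read 311, 446 and 439 in low IL-7, 238, 161 and 133 in cells given IRF4, and 94.1, 329 and 179 in high IL-7. High IL-7 replicate 2 overlapped the low IL-7 arrays, and high IL-7 replicate 1 lay below the filter intensity. The change was 1.07 (SE 0.35, adjusted p = 0.0318). It was no longer called when replicate 2 (adjusted p = 0.0986) or 3 (0.0982) of the low IL-7 arrays was left out. The same held for replicate 1 (0.092, with a change of 0.66) and replicate 3 (0.0733) of the high IL-7 arrays.

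The H3K27 demethylases changed little. Kdm6a, or UTX, read 2205, 2065 and 2118 in low IL-7, 1966, 2035 and 1940 in cells given IRF4, and 1850, 1844 and 1625 in high IL-7. It rose by 0.26 (SE 0.08, adjusted p = 0.0197) with no overlap, but the call was lost with arrays centred on their medians (0.0632), with the mean of its probe sets (0.386) and when replicate 3 was left out of the low IL-7 arrays (0.0573) or of the high IL-7 arrays (0.0981). Kdm6b, or JMJD3, read 689, 548 and 575 in low IL-7, 516, 531 and 399 in cells given IRF4, and 493, 539 and 552 in high IL-7, and was not called (change 0.18, adjusted p = 0.299). None of the genes named for H3K36 demethylation, Kdm2a (0.11), Kdm2b (-0.12) and Kdm8 (-0.07), was called on its brightest probe set. The Kdm2b probe set is of a kind that can match several transcripts, and without such probe sets Kdm2b changed by -0.34 (adjusted p = 0.0387). With the mean of its probe sets Kdm2a changed by 0.26 (0.0329), where 1 dimmer probe set changed by 0.93.

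**Figure D3:**
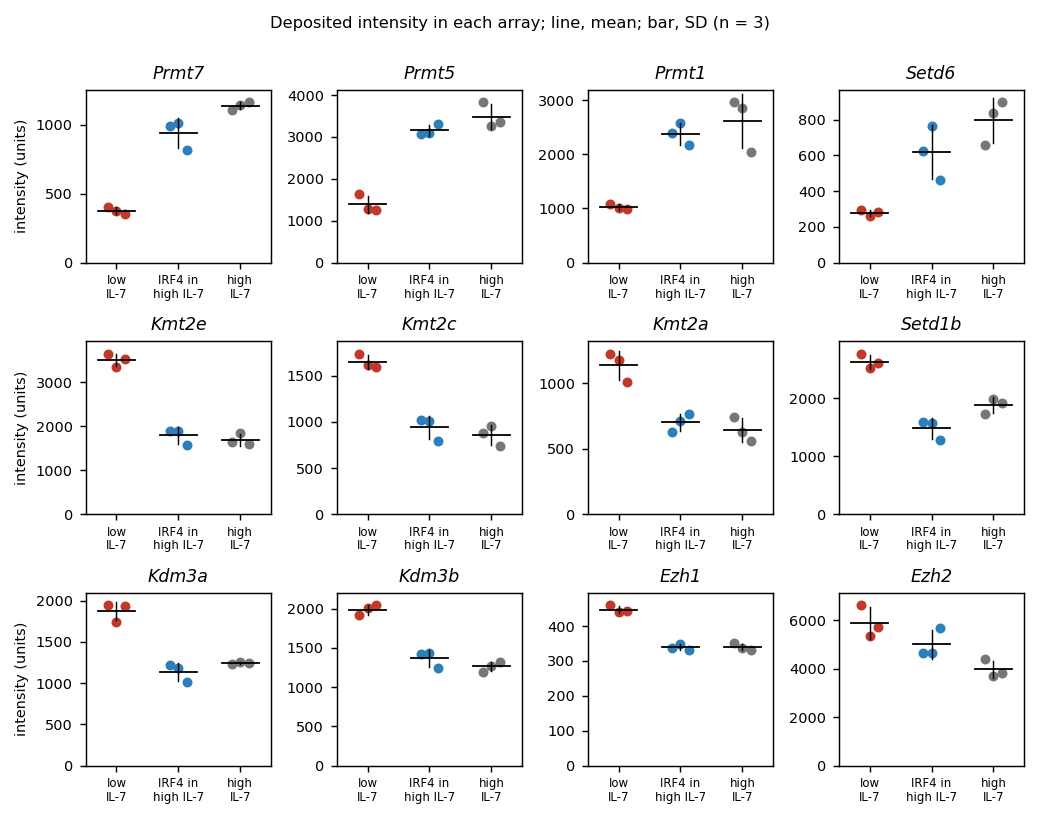
Deposited intensity (linear axis from 0) of 12 genes in each array for low IL-7, IRF4 in high IL-7 and high IL-7, with horizontal lines for means and bars for the SD (n = 3). Prmt7, Prmt5, Prmt1 and Setd6 are lowest in low IL-7, and Kmt2e, Kmt2c, Kmt2a, Setd1b, Kdm3a, Kdm3b, Ezh1 and Ezh2 have their highest mean there.

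The largest change of the 48 genes was in an arginine methyltransferase, and 4 more of them fell. Prmt7, which makes monomethylarginine, read 402, 376 and 353 in low IL-7, 992, 1012 and 813 in cells given IRF4, and 1108, 1146 and 1162 in high IL-7. The means were 377 ± 24.5 for low IL-7 and 1139 ± 27.5 for high IL-7 (SD, n = 3 each), a change of -1.56 (SE 0.10, adjusted p = 1.59e-06) or 2.94-fold lower. The other Prmt7 probe set above the filter did not show this: it changed by 0.29 (adjusted p = 0.0878 over all probe sets). Prmt5, the main symmetric arginine dimethylating enzyme, read 1627, 1289 and 1244 in low IL-7, 3067, 3101 and 3309 in cells given IRF4, and 3825, 3263 and 3363 in high IL-7. Its change was -1.33 (SE 0.11, adjusted p = 5.05e-06), and its only probe set is of a kind that can match several transcripts.

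Prmt1, the main asymmetric arginine dimethylating enzyme, read 1082, 1005 and 995 in low IL-7, 2385, 2586 and 2178 in cells given IRF4, and 2959, 2853 and 2044 in high IL-7, and changed by -1.32 (SE 0.13, adjusted p = 2.19e-05). Prmt3, an enzyme of the cytosol that methylates the ribosomal protein Rps2, read 1461, 1217 and 1340 in low IL-7, 1955, 2096 and 1697 in cells given IRF4, and 1924, 2376 and 2463 in high IL-7 (change -0.74, SE 0.12, adjusted p = 0.000582). Prmt6, which methylates H3R2, read 349, 303 and 271 in low IL-7, 514, 491 and 443 in cells given IRF4, and 536, 480 and 506 in high IL-7 (change -0.70, SE 0.11, adjusted p = 0.000448). In all 5 genes every low IL-7 array lay below every array of the other 2 groups, and the arrays with IRF4 overlapped those in high IL-7 in each gene but Prmt7, where they lay below. The share of all genes separated in this way was not counted, and these genes were grouped by their calls. Their separation therefore adds no support to those calls. Prmt2 and Prmt9 changed by 0.15 and 0.25 and were not called.

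The promoters of Prmt1, Prmt3, Prmt5 and Prmt7 are shown as those of 4 of the 5 arginine methyltransferase genes that fell, and all 5 were searched for 1 motif, the canonical E-box CACGTG, which MYC and MAX among other factors can bind. Each runs 5′ to 3′ on the gene's strand from 250 bases before the start to 50 after it, from RefSeq on GRCm38.p6, with the E-box in capitals.
Prmt1, chr7:44986371-44986670, minus strand: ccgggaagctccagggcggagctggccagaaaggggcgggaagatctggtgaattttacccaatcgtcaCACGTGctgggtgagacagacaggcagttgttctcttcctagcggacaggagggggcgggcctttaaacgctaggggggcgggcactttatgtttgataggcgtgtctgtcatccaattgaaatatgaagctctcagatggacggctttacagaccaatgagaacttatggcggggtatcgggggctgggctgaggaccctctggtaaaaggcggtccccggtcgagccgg
Prmt3, chr7:49778108-49778407, plus strand: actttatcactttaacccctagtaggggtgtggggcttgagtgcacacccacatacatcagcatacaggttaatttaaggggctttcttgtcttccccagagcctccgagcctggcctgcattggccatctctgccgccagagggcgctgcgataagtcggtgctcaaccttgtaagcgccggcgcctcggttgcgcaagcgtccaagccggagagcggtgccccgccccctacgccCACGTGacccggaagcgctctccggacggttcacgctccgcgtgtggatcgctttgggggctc
Prmt5, chr14:54517421-54517720, minus strand: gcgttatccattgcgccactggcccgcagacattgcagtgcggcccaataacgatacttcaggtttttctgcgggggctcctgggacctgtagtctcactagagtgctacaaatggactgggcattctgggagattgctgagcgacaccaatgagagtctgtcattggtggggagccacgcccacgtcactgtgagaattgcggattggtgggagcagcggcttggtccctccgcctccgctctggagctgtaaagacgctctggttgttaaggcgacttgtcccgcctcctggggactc
Prmt7, chr8:106210804-106211103, plus strand: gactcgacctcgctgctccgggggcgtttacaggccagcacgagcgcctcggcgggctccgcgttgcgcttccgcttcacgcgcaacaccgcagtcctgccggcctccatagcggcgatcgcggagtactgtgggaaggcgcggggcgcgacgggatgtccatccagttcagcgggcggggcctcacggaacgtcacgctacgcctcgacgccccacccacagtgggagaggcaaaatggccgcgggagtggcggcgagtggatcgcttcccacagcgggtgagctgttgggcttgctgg

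In Prmt1 the motif began at -181 and in Prmt3 at -13 relative to the start, and the windows of Prmt5, Prmt7 and Prmt6, whose sequence is not printed, held none, so 2 of the 5 held it. The motif is its own reverse complement, so 1 search covers both strands. It stood in 2187 of 27025 promoters of all genes (8.09%), in 5 of the 42 promoters of the genes described here that had an entry, in 2 of 9 that fell in low IL-7 and in 2 of 14 that rose. The other holders were Kdm4c and Kdm6a, which rose, and Ehmt2, which was not called. These are descriptions of letters in a window and say nothing of binding.

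Of the 4 further SET genes, Setd6, which methylates the NF-kappaB subunit RelA, read 294, 261 and 281 in low IL-7, 627, 763 and 461 in cells given IRF4, and 656, 839 and 896 in high IL-7. The low IL-7 arrays were all below the others, and the arrays with IRF4 overlapped those in high IL-7. The change was -1.45 (SE 0.17, adjusted p = 6.97e-05), and its second probe set above the filter fell as well. Setd3, the actin histidine methyltransferase, fell by 0.57 (adjusted p = 0.00468), but with the mean of its probe sets the change was -0.14 (adjusted p = 0.224). Setd4 and Setd5 changed by 0.15 and -0.12 and were not called.

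Many of these genes have several probe sets, so the calls were set against the other ones. Of the 48 tested genes, 33 had more than 1 probe set above the filter. Among the 11 rising genes with several, all were called in 4 and at least 2 in 8, while 7 rising genes had only 1. Among the 7 falling genes with several, all were called in 1 (Setd6) and at least 2 in 3, while Prmt1 and Prmt5 had only 1. For Kmt2e 4 of 6 probe sets rose, by 0.96 to 1.12, and both others, which were dim, were not called, with the lower at -0.22. With the mean of each gene's probe sets, several changes were smaller by over 1.5 times and still called: 0.66 for Kmt2e, 0.40 for Kdm3b, 0.27 for Kmt5b, 0.22 for Ezh1, 0.52 for Kdm5b, -0.26 for Setdb1, -0.44 for Prmt6 and -0.63 for Prmt7. The other probe sets above the filter of Ezh1 (0.13 and 0.14), Kdm3b (0.15) and Prmt6 (-0.18) were not called. For low against high IL-7, Kmt5a was the only gene with probe sets called in opposite directions, by -0.42 (adjusted p = 0.00831) and 0.53 (0.00652) over all probe sets. All probe sets of Kmt2c above the filter rose, and 4 of the 5 of Prmt3 fell.

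**Figure D4:**
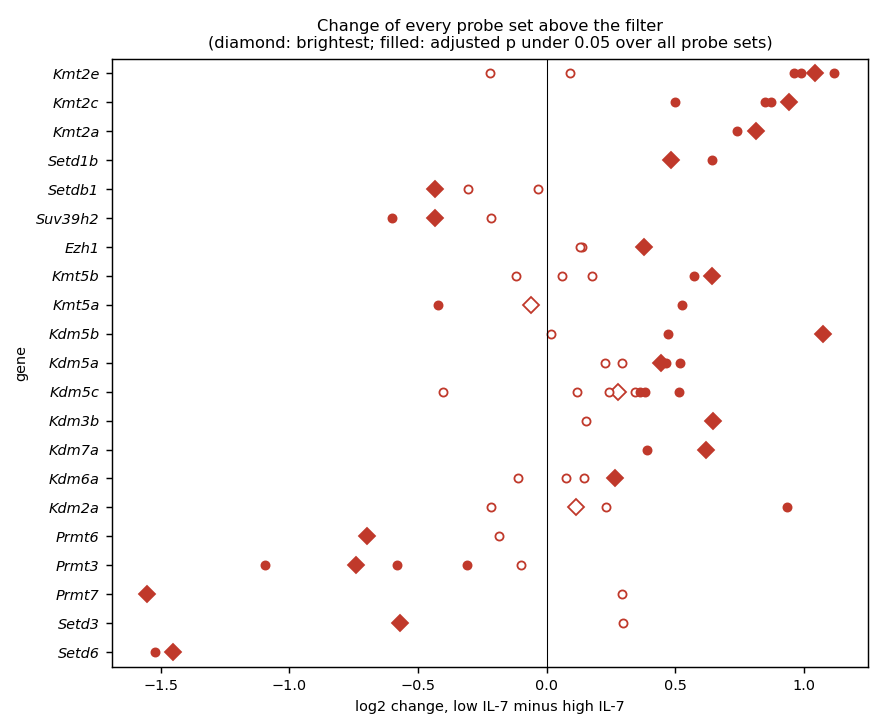
Log2 change of low IL-7 minus high IL-7 for each probe set above the filter (diamond, brightest; filled, adjusted p under 0.05 over all probe sets) of 21 genes. The probe sets of Prmt7, Setd3, Kmt5a, Kmt2e, Kmt5b, Kdm6a, Kdm5c and Kdm2a lie on both sides of 0, while the Kmt2c and Setd6 points keep to one side.

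With IRF4 reintroduced in high IL-7, none of the 48 genes was called against high IL-7 alone, where 2.93% of all genes were called (376 of 12828: 1.92% rose and 1.01% fell). At an unadjusted p under 0.05 there were 7 of the 48, against 15% of all genes. The smallest adjusted p values were 0.115 for Setd1b, with a change of -0.35, and 0.149 for Ezh2, with a change of 0.33. Neither gene's groups overlapped (values above). The others at that unadjusted level were Kdm7a (0.40), Kdm1b (0.29), Prmt7 (-0.28), Nsd1 (-0.25) and Suv39h2 (-0.24). The 95% intervals of all 48 changes lay within 1 log2 unit of 0, from -0.81 at the lowest to 0.74 at the highest, and those of 40 within 0.5. The median change was -0.04, against -0.01 over all genes. This comparison shares its high IL-7 arrays with that of low IL-7. A p above the threshold does not show that these genes were unaffected. When arrays were given weights by their noise, 14 of the 48 were called in this comparison, and so were 25.3% of all genes.

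The arrays with IRF4 and those in low IL-7 were compared directly, which also tests whether the changes against high IL-7 differ, since the shared high IL-7 arrays cancel. Of the 48 genes 8 rose and 17 fell with IRF4 relative to low IL-7 (16.7% and 35.4%), where 18.6% of all genes rose and 17.7% fell, 36.3% in all. The median was -0.23, against 0.00 over all genes. By class, 1 of 21 lysine methyltransferases rose and 9 fell, 0 of 16 demethylases rose and 7 fell, and 5 of 7 arginine methyltransferases rose and 1 fell. Prmt7 was higher with IRF4 by 1.28 (adjusted p = 6.99e-06), Prmt1 by 1.20 (5.31e-05) and Prmt5 by 1.19 (1.38e-05), all limma values. Kmt2e was lower by 0.97 (change -0.97, adjusted p = 2.31e-05), and Setd1b (-0.83, 0.000103) and Kdm3a (-0.71, 0.000148) followed. Kmt2c (-0.81, 0.000489), Kmt2a (-0.69, 0.00152), Setd2 (-0.41, 0.00631) and Ezh1 (-0.38, 0.00265) were also lower with IRF4. With the mean of each gene's probe sets Prmt7 changed by 0.60, Kmt2e by -0.56 and Ezh1 by -0.23, all still called. Kdm5c was not called on its brightest probe set, but 6 of its 8 were called down. Their mean changed by -0.40 (limma adjusted p = 0.00178). Setd3 and Kmt5a were the 2 genes with probe sets called in opposite directions in this comparison. Setd3 had 1 called up (0.56) and 1 called down (-0.76). Kmt5a had 1 called up and 1 called down among 3 that ran from -1.02 to 0.39.

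Ezh2 was not called in this comparison (-0.24, adjusted p = 0.102), nor were Kdm6a (-0.10, 0.329) and Kdm7a (-0.22, 0.295), whose arrays with IRF4 averaged between those in low and high IL-7. Kdm1b was just past the threshold (-0.29, adjusted p = 0.0497). Setdb2, a further H3K9 methyltransferase gene, was higher with IRF4 by 0.41 (0.0149), Prmt9 was lower (-0.43, 0.00691), and so was Ehmt1 (-0.24, 0.0395). The corresponding changes of low against high IL-7 were -0.24 for Setdb2 (adjusted p = 0.118), 0.25 for Prmt9 (0.0812) and 0.18 for Ehmt1 (0.11). Calls lost when a single array was left out are those of Ehmt1, Kdm1b, Kdm4c, Kdm5b and Setdb2: without low IL-7 replicate 2, for example, Kdm1b had an adjusted p of 0.163 and Setdb2 of 0.0551. Kdm1b and Ehmt1 were also lost without the filter, with arrays centred on their medians and with only the 2 groups fitted. Counting the main fit, Kdm1b was called in 11 of 23 settings and Ehmt1 in 13 of 23.

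The partners of these enzymes were taken from lists and compared between low and high IL-7, where 17.8% of all genes rose and 19.5% fell. In PRC2, 3 of 9 tested partner genes rose and 2 fell (median 0.22). Jarid2, which guides PRC2 to its targets, changed by 0.60 (adjusted p = 0.000951), and Eed, which binds trimethylated H3K27, by -0.36 (0.00316). Rbbp4, the histone-binding subunit, changed by 0.32 (0.000368). Without probe sets that can match several transcripts, Rbbp4 changed by -0.24 (0.261) and Jarid2 by 0.00 (0.996). In the COMPASS and MLL complexes, which carry the H3K4 enzymes above, 0 of 11 partner genes rose and 5 fell (median -0.21). The core subunit genes Wdr5, Ash2l and Dpy30 fell by 0.69 (adjusted p = 0.000168), 0.65 (0.00106) and 0.58 (0.00209), while the median of all genes was 0.02.

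In the list of methyl donor supply, 9 of 12 tested genes fell and 0 rose, with a median of -0.99. Of all genes, 19.5% fell and 17.8% rose. Shmt2, the mitochondrial enzyme that feeds serine carbon into the folate cycle, fell by 2.04 (adjusted p = 1.59e-06), and its cytosolic relative Shmt1 by 1.38 (1.26e-06). Mtap, which recycles the methylthioadenosine that inhibits Prmt5, fell by 1.70 (2.62e-07). Ahcy, which clears S-adenosylhomocysteine, fell by 0.71 (1.04e-05). Among partners of Prmt1 and Prmt5, 2 of 6 rose and 2 fell (33.3% each), and a list this short gives no result about the partners as a set. Wdr77, the obligate Prmt5 partner, fell by 1.61 (1.04e-06) and Clns1a, which brings Sm proteins to it, by 0.52 (4.39e-05), while Btg1, a Prmt1-binding antiproliferative protein, rose by 1.51 (1.85e-06).

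In the other lists genes went both ways, and shares near those of all genes (17.8% rose, 19.5% fell) are no result about a list. Of 16 tested PRC1 genes 4 rose and 2 fell (median 0.07), with Pcgf6, of a variant PRC1, at -1.74 (adjusted p = 7.94e-07) and the ubiquitin ligase gene Rnf2 at 0.47 (0.00108). Of 8 partners of Dot1l and the elongation machinery 4 rose and 2 fell (median 0.31), with Aff3 up by 1.40 (3.09e-06) and Aff1 by 0.65 (0.000175). The Aff1 and Rnf2 calls were lost with the mean of each gene's probe sets (adjusted p = 0.523 and 0.124). Of 8 H3K9 heterochromatin partners 1 rose and 2 fell (median -0.18). The fall of Trim28 was no longer called with only the 2 groups fitted (adjusted p = 0.0529) or without the variance trend (0.0829). It was also lost when single arrays were left out, such as low IL-7 replicate 3 (0.13). Atf7ip, which stabilises Setdb1, rose by 1.01 (0.000287), and Wiz, which joins the Ehmt1 and Ehmt2 complex, fell by 0.50 (0.0205) and was not called when replicate 2 (0.0751) or 3 (0.0865) of low IL-7, or replicate 1 of high IL-7 (0.0681), was left out. Of 9 LSD1 partners 3 rose and 1 fell (median 0.18), with the repressor gene Gfi1 up by 0.73 (0.000868). The rises of Gfi1b and Hmg20b were not called when low IL-7 replicate 1 was left out (adjusted p = 0.0513 and 0.0562). Hmg20b was also lost without low IL-7 replicate 3 (0.0587) or high IL-7 replicate 1 (0.0591).

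Methyltransferases and JmjC proteins outside the naming rule also went both ways. Beside them, and beside the cell cycle genes below, stand the 17.8% of all genes that rose and the 19.5% that fell. Of 11 tested further histone methyltransferases 3 rose and 4 fell (median -0.13), with Smyd2 at -1.95 (adjusted p = 3.99e-06), the arginine methyltransferase gene Carm1 at -1.66 (0.000534) and Smyd5 at -1.35 (5.23e-06). Of 8 further JmjC genes 3 rose and 3 fell (median -0.01), with Phf2 at 0.88 (5.88e-06), Jmjd1c, a relative of Kdm3a and Kdm3b, at 0.81 (4.67e-05) and the ribosome oxygenase gene Riox1 at -1.05 (4.33e-05). Cell cycle genes were counted beside these because several of the enzymes vary over the cycle. Among 20 DNA replication and G1/S genes, 2 rose and 3 fell (median -0.04), and among 14 mitosis and G2/M genes, 9 rose and 0 fell (median 0.34). Their part in the changes above was not tested.

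**Figure D5:**
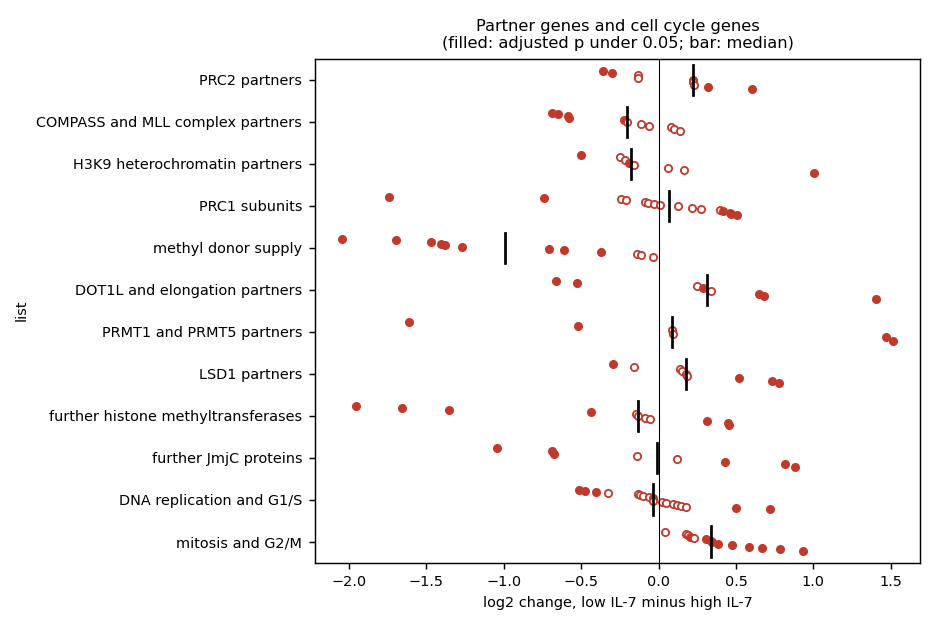
Log2 change of low IL-7 minus high IL-7 for every tested gene (point) of 12 lists (rows), filled where the adjusted p was under 0.05, with a bar at each list's median. The methyl donor supply list has its median at -0.99 and mitosis and G2/M at 0.34, while the others lie between -0.21 and 0.31.

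In the comparison of IRF4 with high IL-7, where 2.93% of all genes were called, Aff3 rose by 1.01 (limma adjusted p = 0.000336), Btg1 by 1.05 (0.000245) and Phf2 by 0.36 (0.0251), and Gfi1 fell by 0.58 (0.0346). No gene of the PRC2, COMPASS and MLL, or methyl donor lists was called in it. At an unadjusted p under 0.05 there were 0 of 9 PRC2 partners, 1 of 11 COMPASS and MLL partners and 3 of 12 methyl donor genes, against 15% of all genes.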

How the data were processed

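The authors deposited linear intensity values of 45101 probe sets on 9 arrays. Per the labels' protocols, total RNA was purified with Trizol and on columns, carried a biotin label and was hybridised in the standard Affymetrix way. The sources used here do not give the summarisation, scaling or filtering behind these values, and detection p-values were not used. The table has 0 columns outside these samples.

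The genes, gene lists and tests were chosen with earlier results of these data known. Kansl1 was dropped from the COMPASS and MLL list afterwards, and its change is not given here. Group and replicate came from the sample titles. Symbols came from the platform annotation, which gave 34945 probe sets 1 symbol and 932 several, and 34741 were matched by Entrez identifier to RefSeq's table of GRCm38.p6, which changed 0 of them. The probe sets used for 3 of the 51 genes (Prmt5, Kdm1a and Kdm2b) are of the kind that can match several transcripts.

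Values were taken as log2(intensity + 16) with no further normalization. Probe sets under the 40th percentile of mean log2 value were left out and the brightest kept per gene. Group means were fitted over all arrays in limma 3.58.1, under R 4.3.3 (lmFit, then eBayes with a trend), with Benjamini-Hochberg adjustment over 12828 genes. For single probe sets, the fit and the adjustment covered all probe sets but the control ones, without the filter. The r between replicates was 0.986 to 0.996, with no more than 2 values identical, and each array was counted. Deviations from the group means of same-numbered low and high IL-7 arrays correlated at 0.54, 0.38 and 0.28, so their numbers were taken to pair them in an alternative fit. The main fit had no pairing, so its p-values do not use this correlation. The replicate block within these 6 arrays was not planned at first. Pairs with the arrays given IRF4 correlated at -0.37 to 0.01 and were not paired. The fit was tested on simulated data. Alternatives were the pseudocount, the filter, normalization, the variance trend, array weights, the groups fitted, the choice of probe set, the replicate block and leaving out each array. Per-array values are given for the genes with the smallest p (14 for low against high IL-7, 6 for IRF4 against low IL-7) and for 15 genes chosen for their role. From each partner list up to 3 genes with the smallest p are named. Python 3.11.15 with matplotlib 3.10.9 drew the figures.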

Additional observations from a re-analysis of the deposited data

How the results depend on the processing

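Up to 23 alternatives were run per gene for low against high IL-7 and up to 22 for IRF4 against low IL-7, 1 or 2 fewer where an alternative left the gene out. In all that were run for the gene, 15 of the 18 rises and 8 of the 9 falls of low against high IL-7 were called, and 6 of 8 rises and 13 of 17 falls of IRF4 against low IL-7. With array weights the Kdm4c changes were 0.27 for low against high IL-7 and -0.21 for IRF4 against low IL-7. Leaving out each array in turn gave 15 to 20 rises and 9 falls in the first comparison, 7 to 9 rises and 14 to 19 falls in the comparison of IRF4 with low IL-7, and 0 calls of IRF4 against high IL-7. Array weights, which ran from 0.25 for IRF4 replicate 3 to 5.42 for low IL-7 replicate 3, gave 14 falls of low against high IL-7 (where 32.3% of all genes fell) and 14 calls of IRF4 against high IL-7 where 0 were called without them; over all genes these weights gave 8263 calls against 4783, 3248 against 376, and 7807 against 4651 for IRF4 against low IL-7. Without the arginine methyltransferases, 4 falls of low against high IL-7 and 3 rises of IRF4 against low IL-7 remained, as fewer genes were counted. This alternative kept the adjusted p values of the main fit, so it could change no call and does not test any. Setd3 changed sign for IRF4 minus low IL-7 with the mean of its probe sets (-0.10 in place of 0.56), and Rbbp4 for low minus high IL-7 without probe sets that can match several transcripts (-0.24 in place of 0.32); the cause was not tested. The replicate block within the 6 paired arrays gave 20 rises and 9 falls of low against high IL-7, adding Kmt2b and Kdm5c, and the replicate block over all 9 arrays gave 18 and 9. For IRF4 against low IL-7 the block over 9 arrays added Setd7 (adjusted p = 0.0382) and Setdb1 (0.0462), and it changed no other call. Each group holds 3 arrays, no detection calls were used, and the Kdm5b call was lost without any of 4 of the arrays.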
